A study of Mus musculus with 21 samples.

Results

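The 10 genes described here belong to the interleukin-6 (IL-6) family signaling route through STAT3 and to the acute phase genes it controls. They were chosen by symbol (Il6st, Osmr, Stat3, Socs3, Cebpd, Bcl3, Lrg1, Hp, Mt1 and Mt2) from a table of 56691 mouse genes, and each symbol matched 1 gene. The table covers 21 bulk RNA-seq libraries of mouse heart in a design that crosses doxorubicin (DOX), an anthracycline chemotherapy drug with known cardiac toxicity, with a tumor grown from 4T1 cells, a mouse mammary carcinoma line. The 4 groups were Control (5 libraries, no tumor, normal saline), DOX (5 libraries, no tumor, doxorubicin), Tb (6 libraries, 4T1 tumor, normal saline) and Tb-DOX (5 libraries, 4T1 tumor, doxorubicin). According to the study's methods the tumor cells were injected under the skin and DOX was given by weekly intraperitoneal injection. Strain, sex and age are not given in the sources used here, and no group carries an engineered allele. GEO's labels give 4T1 as source for every library, even those from mice with no tumor. Cardiomyocyte markers were high in all 21 libraries, with sums over 9 genes of 49512 to 93692 CPM (counts scaled to a common library total), while 5 epithelial markers that 4T1 cells could carry summed to 0.262 to 4.64 CPM. The libraries were read as heart throughout, and nothing in the labels says which replicates came from separate animals, so that p-values measure the spread between libraries.

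IL-6 family cytokines bind a specific receptor chain and the shared chain gp130, which activates Janus kinases (JAKs) that phosphorylate STAT3. STAT3 then enters the nucleus and turns on its own inhibitor SOCS3, further transcription factors and, above all in liver, the secreted acute phase proteins that rise in blood during inflammation. Metallothioneins are small zinc-binding proteins whose genes respond to zinc through the factor MTF1 and also to glucocorticoids and IL-6. In the heart this route is known for protecting cardiomyocytes under stress and for signaling during systemic inflammation, and several of the genes are also expressed by neutrophils.

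Promoter sequences are shown for the STAT3 inhibitor gene Socs3, the member with the largest fold change in Tb after Hp, and for the metallothionein genes Mt1 and Mt2, which lie next to each other and varied together among libraries. RefSeq promoters of build GRCm38.p6 (250 bases before to 50 after the start) were on hand for 8 members and not for Cebpd and Hp. The letters TTCNNNGAA, a STAT motif, were found on either strand in 8.3% of 32851 promoters of this length, and among the 8 members only in Socs3, at positions -154 to -146 from the start. The core letters of the metal response element, TGCGCNC or TGCACNC on either strand, were found in 25.7% of promoters at least 1 time, in 1.97% at least 3 times and in 0.517% at least 4 times; Mt1 held 3 and Mt2 held 4. Mt2 also held an AP-1 motif (TGANTCA, in 7.81% of promoters) at -79 to -73, and Mt1 a match to the glucocorticoid response element (in 0.475%) at -94 to -82. Bcl3 held a match to the NF-kappaB motif (in 4.51%) and Osmr an AP-1 motif, both just after the start, while the windows of Stat3, Il6st and Lrg1 held none of these letters. Below are the 250 bases before each start, 5′ to 3′ on the gene's strand. Capitals mark the STAT motif in Socs3 (chr11:117969367-117969616, minus strand) and the metal response element cores in Mt1 (chr8:94178839-94179088, plus strand) and Mt2 (chr8:94172368-94172617, plus strand).
Socs3: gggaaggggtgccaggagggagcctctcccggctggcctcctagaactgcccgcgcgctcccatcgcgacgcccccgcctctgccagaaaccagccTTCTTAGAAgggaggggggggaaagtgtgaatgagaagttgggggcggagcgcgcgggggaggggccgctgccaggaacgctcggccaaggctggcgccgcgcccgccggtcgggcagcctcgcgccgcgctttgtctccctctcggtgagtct
Mt1: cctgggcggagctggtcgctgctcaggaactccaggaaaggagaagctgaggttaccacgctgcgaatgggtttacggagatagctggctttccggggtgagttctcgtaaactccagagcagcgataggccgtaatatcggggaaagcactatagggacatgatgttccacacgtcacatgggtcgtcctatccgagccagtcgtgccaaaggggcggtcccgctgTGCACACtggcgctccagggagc
Mt2: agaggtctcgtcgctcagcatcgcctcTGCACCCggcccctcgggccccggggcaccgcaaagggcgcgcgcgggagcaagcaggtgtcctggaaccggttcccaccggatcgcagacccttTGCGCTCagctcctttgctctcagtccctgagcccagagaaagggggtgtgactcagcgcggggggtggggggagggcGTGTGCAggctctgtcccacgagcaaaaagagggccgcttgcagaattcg

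Expression was measured as read counts, whose totals ran from 13521200 to 18601445 per library, and as FPKM, counts scaled by exonic gene length and by the library total, used here for all levels. Of all genes, 13990 had a mean of at least 0.5 FPKM and entered the tests, and all 10 members were among them. Bcl3 and Hp passed only through the other groups, since their Control means were 0.27 and 0.40 FPKM. Fold changes are log2 values from edgeR with their standard error (SE), and a gene was called at an adjusted p under 0.05 over all genes tested. The share of genes called depended on scaling: with TMM scaling 2523 genes were higher and 2548 lower in DOX than in Control, and with library totals alone the split was 1419 to 3532, a shift of the median gene from 0.00 to -0.14. It also depended on the libraries used. Without Tb replicate 5, 3025 genes were higher and 2918 lower in DOX than in Control. In that fit 543 were higher and 135 lower in Tb against Control, and 1820 and 1658 in Tb-DOX against DOX.

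Libraries that stood apart bear on these genes. Tb replicate 5 had the highest level of all 21 libraries for 8 of the 10 members, every one but Il6st and Hp, whereas it was the highest library for 11.5% of all genes tested. Control replicate 3 was the highest for 16% of all genes and DOX replicate 3 for 13.1%, each with 0 members. In Tb replicate 5 the Mt2 level of 645.3 FPKM was 10.8 times the median of the other 5 Tb libraries, Socs3 8.94 times, Cebpd 6.57 times and Mt1 5.27 times. Il6, the cytokine itself, had 1645 counts in that library and 4 to 16 counts in the other Tb libraries, and the immediate early gene Fos had 3116 counts against 16 to 220. DOX replicate 4 had 3854 counts of the T cell gene Cd3e against 66 to 213 in the other DOX libraries, while the 7 other T cell markers had at most 11 counts there. Tb replicate 5 had 706 counts of Cd3e against 13 to 28 in the other Tb libraries, and at most 44 of any other T cell marker. Results on the members that rest on these libraries are given with and without them.

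Markers of other cell types moved with the groups. The sum of 11 neutrophil markers was 2.81 to 5.05 CPM in Control, 8.51 to 62.4 in DOX, 611 to 5625 in Tb and 913 to 3795 in Tb-DOX, and all 11 were called higher in Tb than in Control and in Tb-DOX than in DOX. In Control 9 of the 11 were under 0.5 FPKM on average and so entered the tests only through the groups where they were high. The neutrophil gene Ly6g had no count in any Control library. In DOX against Control, 7 of 9 macrophage, 4 of 7 fibroblast and 5 of 5 tested erythroid markers were lower (18.2% of all genes were). There 1 fibroblast marker and 5 of 9 cardiomyocyte markers were higher (18.0% of all genes). In Tb-DOX against Tb, 2 of 9 macrophage, 3 of 7 fibroblast and 5 of 5 erythroid markers were lower (2.54% of all genes). Of the cardiomyocyte markers 3 of 9 were higher there (2.18%). In Tb-DOX against DOX, 5 of 9 macrophage and 2 of 7 fibroblast markers were higher (9.52%). Lower there were 2 of 7 fibroblast, 2 of 9 cardiomyocyte and 2 of 5 erythroid markers (7.93%). Of 6 hepatocyte markers, whose cells are the main source of circulating acute phase proteins, Alb had at most 4 counts in any library, Ttr 0 to 6 in Control and 18 to 40 in DOX, and Ahsg 37 to 73 in Control and 100 to 194 in DOX. Apoa2 had 1 to 8 counts in Control and 0 to 5 in DOX, Apoa1 at most 1 in both groups and Serpina1c 0 in both. The list summed to 2.97 to 4.76 CPM in Control, 9.78 to 16 in DOX, 2.49 to 8.99 in Tb and 3.87 to 11.5 in Tb-DOX. The 2 markers tested were called higher in DOX than in Control, where 18.0% of all genes were. Of the 2, 1 was under 0.5 FPKM in Control and passed the filter only through other groups. The part of these markers in the members' levels was not tested. In bulk tissue, fewer cells of a type and less RNA per cell cannot be told apart.

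The members called in each comparison were counted first. Of the 10 members, 6 were called higher in Tb than in Control and 0 lower, against 5.0% of all genes called higher and 1.29% lower (699 genes of 13990 higher). Without Tb replicate 5 the count was 5, where 543 of 13990 genes were called higher. In DOX against Control it was also 5 without that library, where 3025 of 13990 genes were. Between DOX and Control 4 were called higher and 0 lower, where 18.0% of all genes were called higher and 18.2% lower. Without DOX replicate 4 the DOX count was 2, Osmr and Bcl3, where 2161 of 13990 genes were called higher. Between Tb-DOX and DOX only Hp was called, as higher (9.52% of all genes higher, 7.93% lower). Between Tb-DOX and Tb no member was called by edgeR with the filter on low values (2.18% of all genes higher, 2.54% lower), 3 had an unadjusted p under 0.05, limma called 0, and Mt2 was called lower by edgeR with no filter and by DESeq2. The interaction, which asks whether the DOX effect differed with and without a tumor, was called for 3 members, all lower (5.0% of all genes lower, 3.95% higher). The median log2 fold change of the 10 members was 1.52 in Tb against Control (1.11 without Tb replicate 5) and 1.06 in DOX against Control (1.06 without it, 0.66 without DOX replicate 4), where the medians of all genes were -0.01 and 0.00. In the TMM-scaled libraries, 6 members had all Tb values above all Control values (4.21% of all genes), 4 had all DOX values above Control (12%) and 1, Hp, had all Tb-DOX values above DOX (7.66%).

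**Figure D1:**
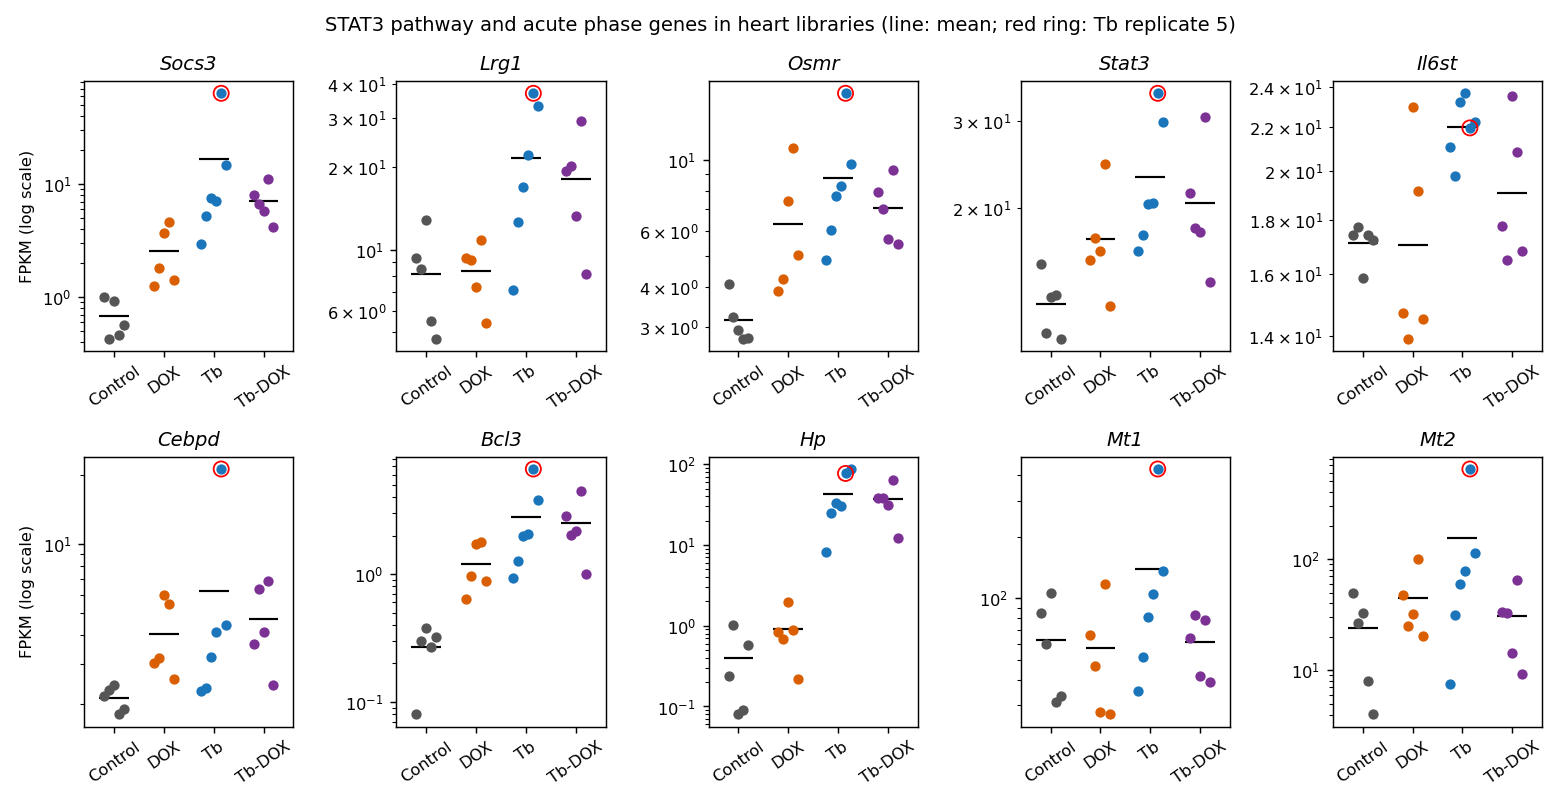
FPKM of the 10 members on log axes, 1 panel per gene and 1 point per library in Control, DOX, Tb and Tb-DOX, with a line at the group mean and a red ring on Tb replicate 5. Hp is below 2 FPKM in all Control and DOX libraries and at 8.08 FPKM or more in all tumor-bearing ones, and the ringed library is far above the other Tb points for Socs3, Cebpd, Mt1 and Mt2.

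Among members in Control, on the FPKM scale, Mt1 had the highest mean (62.7 ± 32.4, SD, n = 5), followed by Mt2 (24.1 ± 18.5), Il6st (17.1 ± 0.72), Stat3 (12.9 ± 1.85), Lrg1 (8.17 ± 3.22), Osmr (3.15 ± 0.55), Cebpd (2.12 ± 0.26), Socs3 (0.678 ± 0.268), Hp (0.40 ± 0.399) and Bcl3 (0.27 ± 0.114). The ranges of Mt1 and Mt2, Mt2 and Il6st, Stat3 and Lrg1, Socs3 and Hp, and Hp and Bcl3 overlapped between libraries, but libraries are shared between genes: within each of the 5 Control libraries Mt1 was above Mt2 and Stat3 above Lrg1, while the order of Mt2 and Il6st, of Socs3 and Hp, and of Hp and Bcl3 differed from library to library. In Tb the order of the means changed: Hp, next to last in Control, had a mean of 43.4 ± 31.4 FPKM (n = 6) and stood above Stat3, Il6st and Lrg1. Within libraries this held in Tb replicates 2 to 6. In Tb replicate 1 Hp (8.08 FPKM) was above Lrg1 (7.12) and below Stat3 (16.4) and Il6st (21.06).

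The receptor genes came first in the route. Il6st encodes gp130, the shared signaling chain, and lies on chromosome 13 (GRCm39, 112600604 to 112646620, plus strand). Its FPKM was 17.41, 17.71, 15.88, 17.42 and 17.25 in Control replicates 1 to 5 and 14.71, 13.92, 22.98, 19.15 and 14.53 in DOX. It ran from 19.79 through a median of 22.1 to 23.68 in Tb and was 17.75, 16.5, 23.52, 20.84 and 16.82 in Tb-DOX. All 6 Tb libraries were above all 5 Control libraries, but the difference was small (log2 fold change 0.32 ± 0.11 SE) and missed the threshold (adjusted p = 0.0967). No other comparison called Il6st, and its fold change between DOX and Control (0.12 ± 0.11) turned to -0.01 with library totals alone.

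Osmr encodes the receptor chain that pairs with gp130 to bind oncostatin M (chromosome 15, 6843058 to 6904450, minus strand). Osmr was at 4.08, 3.22, 2.94, 2.76 and 2.77 FPKM in Control and at 3.9, 4.25, 7.44, 10.91 and 5.03 in DOX. In Tb it ran from 4.87 through 7.99 to 16.15, and in Tb-DOX it was 7.96, 7.02, 5.64, 9.29 and 5.44 FPKM. Every Tb library was above every Control library, while DOX replicate 1 lay just below the highest Control library on this scale and above it after TMM scaling. Osmr rose in Tb (log2 fold change 1.45 ± 0.29, 2.74-fold, adjusted p = 0.00207) and in DOX (1.13 ± 0.29, 2.19-fold, adjusted p = 0.00497), and both calls held in each of the 21 fits that left out 1 library. With a tumor, DOX libraries and saline libraries did not separate (Tb-DOX against Tb -0.35 ± 0.28, adjusted p = 0.506, and -0.03 without Tb replicate 5).

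Stat3 encodes the transcription factor itself (chromosome 11, 100775924 to 100830366, minus strand). It overlaps Stat5a on the opposite strand, which had at most 248 counts in a library against up to 5768 for Stat3. Whether counting used strand is not given in the sources used here, so for this and the other overlapping pairs named below the reads of both genes cannot be told apart. Stat3 was at 15.48, 11.22, 13.26, 13.37 and 10.95 FPKM in Control and at 15.73, 17.42, 16.44, 24.59 and 12.71 in DOX. In the Tb libraries it ran from 16.4 through 20.4 to 34.07, above every Control library, and in Tb-DOX it was 21.46, 18.3, 17.94, 30.54 and 14.24. These were modest changes in an already abundant mRNA. Stat3 rose in Tb (0.81 ± 0.21, 1.76-fold, adjusted p = 0.0176; without Control replicate 2 or 5 the adjusted p reached 0.0563) and in DOX (0.58 ± 0.21, 1.49-fold, adjusted p = 0.0375). The DOX call was lost when any of Control replicates 2 to 5 or DOX replicate 2 or 4 was left out, with an adjusted p of up to 0.135.

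Socs3 encodes the feedback inhibitor that binds gp130 and JAKs (chromosome 11, 117856905 to 117860873, minus strand), and its promoter held the STAT motif printed above. Socs3 was at 1.0, 0.43, 0.93, 0.46 and 0.57 FPKM in Control and at 1.26, 1.8, 3.7, 4.59 and 1.41 in DOX. Across Tb libraries it ran from 2.93 through 7.32 to 63.8 and in Tb-DOX it was 8.01, 6.71, 5.83, 11.08 and 4.22. All Control libraries lay below all libraries of the other 3 groups, and DOX replicates 3 and 4 were the only DOX libraries above the lowest Tb library. Socs3 rose in Tb by 4.67 ± 0.73 on the log2 scale (25.4-fold, adjusted p = 0.000158), and by 3.37 ± 0.41 without Tb replicate 5 (adjusted p = 6.8e-06). It rose in DOX by 2.04 ± 0.72 (4.1-fold, adjusted p = 0.0307), a call that was lost without Control replicate 2, 4 or 5 or DOX replicate 3 or 4 (adjusted p up to 0.0908) and was firmer without Tb replicate 5 (adjusted p = 0.000493), since the groups share 1 estimate of the spread. The neutrophil marker sum was also higher in DOX replicates 3 and 4 (62.4 and 31.5 CPM) than in the other DOX libraries (8.51 to 13.8), and its part in the Socs3 level was not tested.

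Cebpd encodes a C/EBP family factor that takes part in the acute phase response (chromosome 16, 15705150 to 15708895, plus strand, overlapped on the opposite strand by Spidr with at most 129 counts). Cebpd was at 2.17, 2.3, 2.43, 1.81 and 1.91 FPKM in Control and at 3.03, 3.17, 5.96, 5.47 and 2.57 in DOX, so that all DOX libraries lay above all Control libraries. It ran from 2.28 through 3.67 to 21.15 in Tb and was 3.65, 6.35, 4.13, 6.85 and 2.42 in Tb-DOX. Tb replicates 1 and 2 lay within the Control range, and the Tb mean of 6.26 ± 7.35 FPKM fell to 3.28 ± 0.983 without replicate 5. Cebpd was not called in DOX with all libraries (1.06 ± 0.51, adjusted p = 0.107) and was called without Tb replicate 5 (1.06 ± 0.25, adjusted p = 0.00173). In Tb it was 1.59 ± 0.49 (adjusted p = 0.0582) and 0.55 ± 0.25 without that library (adjusted p = 0.277), and it was called when Tb replicate 1, 2 or 3 was left out instead (adjusted p down to 0.0242).

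Bcl3 encodes an atypical IkappaB protein that acts with NF-kappaB in the nucleus (chromosome 7, 19542387 to 19556695, minus strand). In Control it was the least abundant member, with 3 to 15 counts in Control libraries and 35 to 292 in Tb. Bcl3 was at 0.08, 0.3, 0.38, 0.27 and 0.32 FPKM in Control and at 0.64, 0.97, 1.73, 1.77 and 0.89 in DOX. Its Tb values ran from 0.93 through 2.02 to 6.64 and in Tb-DOX it was 2.83, 2.04, 2.18, 4.44 and 1.01, and no library of these 3 groups overlapped Control. Bcl3 rose in Tb (3.35 ± 0.53, 10.2-fold, adjusted p = 0.000166) and in DOX (2.28 ± 0.54, 4.87-fold, adjusted p = 0.00264), and both calls held in each of the 21 fits that left out 1 library. Gm16175 and Gm16174 overlap it on the opposite strand with at most 11 and 25 counts.

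Lrg1 encodes a leucine-rich glycoprotein of blood plasma that is also stored in neutrophil granules (chromosome 17, 56426678 to 56429001, minus strand). An unnamed gene on the opposite strand overlaps it, with at most 201 counts against up to 924 for Lrg1. Lrg1 was at 9.31, 8.51, 12.78, 5.5 and 4.75 FPKM in Control and at 9.28, 9.13, 7.32, 10.79 and 5.42 in DOX, and the DOX libraries lay within the Control range (0.19 ± 0.37, adjusted p = 0.716). In Tb it ran from 7.12 through 19.5 to 36.93 and in Tb-DOX it was 19.28, 20.17, 13.24, 29.35 and 8.16. The lowest library of either tumor group lay inside the Control range. Lrg1 rose in Tb (1.37 ± 0.36, 2.58-fold, adjusted p = 0.0232), a call that was lost without Tb replicate 5 (1.09 ± 0.33, adjusted p = 0.0618) and also without Tb replicate 6 or Control replicate 2, 4 or 5 (adjusted p up to 0.0731).

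Hp encodes haptoglobin, the plasma protein that captures free hemoglobin, made by liver and also by maturing neutrophils (chromosome 8, 110301760 to 110305804, minus strand). Hp was at 0.24, 1.02, 0.08, 0.09 and 0.57 FPKM in Control, from 2 to 24 counts, and at 0.83, 0.68, 1.96, 0.88 and 0.22 in DOX. In the Tb libraries it ran from 8.08 through 31.6 to 87.31 and in Tb-DOX it was 38.34, 38.29, 31.13, 63.89 and 12.25 FPKM. Every tumor-bearing library was above every tumor-free one. Hp rose 105-fold in Tb against Control (6.71 ± 0.69, adjusted p = 9.45e-07) and 34.7-fold in Tb-DOX against DOX (5.12 ± 0.63, adjusted p = 1.02e-05), the largest fold change of the 10 members in both comparisons. With so few Control counts the size of the first is loose: its log2 value ran from 6.40 without Tb replicate 5 to 7.40 without Control replicate 2, the Control library with the most Hp. It was not called in DOX (1.32 ± 0.81, adjusted p = 0.213).

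The level of Hp in tumor-bearing hearts went with that of the neutrophil markers. Per 100 CPM of the neutrophil marker sum, Hp was 2.05 to 2.50 CPM in the 6 Tb libraries and 2.17 to 2.53 in the 5 Tb-DOX libraries, although the marker sum itself ran from 611 to 5625 CPM. The highest of these ratios was 1.22 times the lowest in Tb and 1.17 times in Tb-DOX. No other member kept so narrow a ratio in either group. In Tb the spread was 1.97-fold for Lrg1, 2.25-fold for Bcl3, 3.38-fold for Mt1, 4.64-fold for Socs3 and 8.69-fold for Il6st. The highest Tb ratios of Socs3, Cebpd, Mt1 and Mt2 were those of Tb replicate 5. In Tb-DOX every other member had a smaller spread than in Tb, and Lrg1 came closest to Hp. A fairly steady ratio there was thus not particular to Hp. In Control and DOX, where the markers were scarce, the Hp ratio was higher and wide, 2.99 to 42.9 and 4.67 to 13.6. The part of neutrophils in the higher level of the members was not tested.

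**Figure D2:**
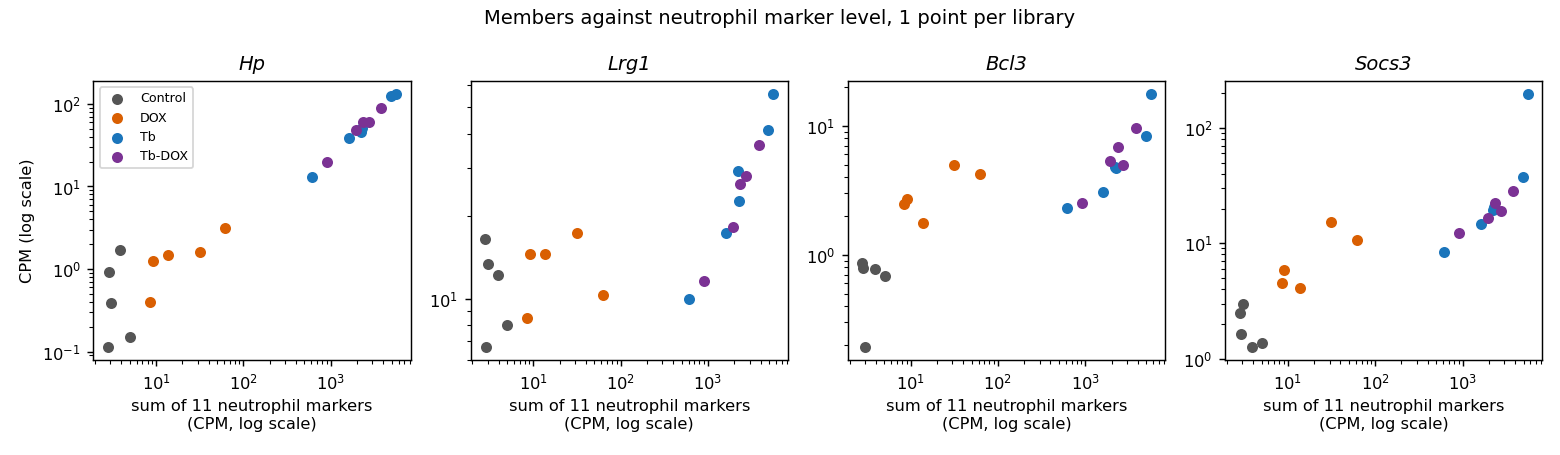
CPM of Hp, Lrg1, Bcl3 and Socs3 against the sum of 11 neutrophil markers in CPM, both on log axes, with 1 point per library coloured by group. In tumor-bearing libraries Hp lies along 1 line, between 2.05 and 2.53 CPM per 100 CPM of markers, and Socs3 in Tb replicate 5 lies above the other tumor-bearing libraries at 3.53 per 100.

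The metallothionein genes Mt1 (chromosome 8, 94905710 to 94906955, plus strand) and Mt2 (94899292 to 94900196, plus strand) are neighbours and code for zinc-binding proteins. Mt1 was at 84.33, 59.44, 105.57, 31.09 and 33.18 FPKM in Control, at 66.12, 46.41, 27.65, 117.98 and 27.1 in DOX, and at 63.68, 83.23, 41.73, 78.18 and 39.05 in Tb-DOX. Across Tb libraries it ran from 35.09 through 93 to 428.04. Mt2 was at 49.28, 26.54, 32.4, 8.08 and 4.02 FPKM in Control, at 47.22, 24.99, 32.31, 100.08 and 20.4 in DOX, and at 33.56, 32.69, 14.34, 64.65 and 9.27 in Tb-DOX, and ran from 7.47 through 68.8 to 645.3 in Tb. The groups overlapped in every comparison, and among the 5 saline-treated Control libraries Mt2 alone ran from 4.02 to 49.28 FPKM. With all libraries and the filter on low values, neither gene was called by edgeR in any comparison. The fold changes of Mt2 in Tb against Control (2.74 ± 0.86, adjusted p = 0.0625) and in Tb-DOX against Tb (-2.46 ± 0.85, adjusted p = 0.0967) became 1.16 ± 0.62 and -0.88 ± 0.61 without Tb replicate 5, and the first was called without Tb replicate 1 or 2 (adjusted p down to 0.0191). Mt1 turned from 0.04 to -0.42 in DOX against Control without DOX replicate 4, the DOX library with the highest Mt1 and Mt2. Gm45774, on the opposite strand of Mt2, had at most 295 counts.

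**Figure D3:**
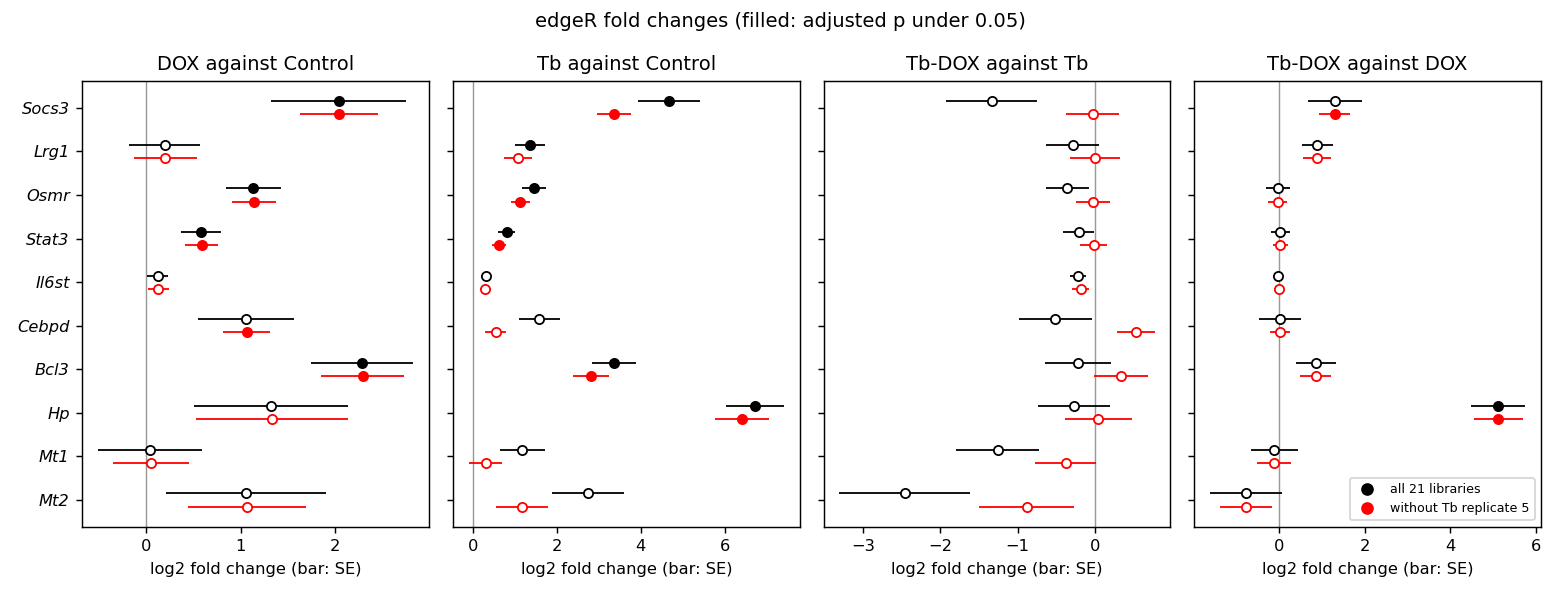
Log2 fold changes of the 10 members with SE bars in 4 comparisons, from all 21 libraries (black) and without Tb replicate 5 (red), filled where the adjusted p was under 0.05. In Tb against Control, Hp, Socs3 and Bcl3 lie farthest to the right, and in Tb-DOX against Tb the negative values of Socs3, Mt1 and Mt2 shrink toward 0 without Tb replicate 5.

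The difference that went with DOX was not the same in tumor-free and tumor-bearing hearts for 3 members. The interaction was -3.37 ± 0.93 for Socs3 (adjusted p = 0.0308), -1.49 ± 0.40 for Osmr (adjusted p = 0.0290) and -2.50 ± 0.69 for Bcl3 (adjusted p = 0.0312): each was higher in DOX than in Control and was not higher in Tb-DOX than in Tb. All 10 interaction values were below 0, with a median of -1.53 (-0.88 without Tb replicate 5), where the median of all genes was 0.00. Without Tb replicate 5 and DOX replicate 4 the median was -0.63 and 9 of 10 were below 0. With limma at either pseudocount or with the replicate block no member was called for the interaction, and DESeq2 called 4. The calls also rested on few libraries. Without Tb replicate 5 the 3 values were -2.07, -1.17 and -1.95 and all remained called, without that library and DOX replicate 4 together Socs3 and Osmr remained called (-1.72 and -0.84) and Bcl3 did not (adjusted p = 0.0631), and without DOX replicate 3, DOX replicate 4 or Control replicate 4 no member was called. Socs3 also lost its call without Control replicate 2 or 5 and Bcl3 without Control replicate 1, with an adjusted p of at most 0.059. Mt2 (-3.52 ± 1.19, adjusted p = 0.0640) was called without Tb replicate 1 or 2 (adjusted p down to 0.0309).

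Beside the interaction stands a split of the libraries that the labels do not explain. The 7 germ cell markers, among them Prm1, Tnp1 and Akap4, were all above 0 in the 5 Control libraries and in Tb-DOX replicates 2 to 5, with sums of 1.66 to 5.11 CPM, and summed to at most 0.239 CPM in the DOX and Tb libraries and to 0 in Tb-DOX replicate 1. This set Control and most of Tb-DOX against DOX and Tb, the contrast that the interaction makes, and its part in the interaction was not tested.

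In Tb-DOX against DOX, where both groups had DOX, Hp was the only member called. Socs3 (1.29 ± 0.63, adjusted p = 0.164), Lrg1 (0.89 ± 0.37, adjusted p = 0.0995) and Bcl3 (0.85 ± 0.46, adjusted p = 0.207) had positive values below the threshold. Without Tb replicate 5, which is in neither group but widens the shared spread, Socs3 was called as well (adjusted p = 0.0114), and without Tb replicate 5 and DOX replicate 4 Lrg1 was added (adjusted p = 0.0439). Osmr, Stat3, Il6st and Cebpd lay within 0.04 of 0, with SEs of 0.29, 0.21, 0.11 and 0.49.

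Other genes of the route were read from lists chosen with earlier results of these data known. Of 11 gp130-type cytokines 3 were tested, and 2 of these, Il6 and Clcf1, were under 0.5 FPKM on average in Control (0.066 and 0.424) and passed the filter only through other groups. Il6 was called higher in Tb (adjusted p = 0.0189) and this rested on Tb replicate 5, without which the log2 fold change was 1.66 (adjusted p = 0.391); in Control it had 0 to 5 counts. Clcf1, a gp130 cytokine of the cardiotrophin family, was at 0.31 to 0.57 FPKM in Control and at 1.24 to 3.34 in DOX, without overlap, and rose by 2.38 ± 0.42 (adjusted p = 0.000204), with a lower value in Tb-DOX than in DOX (-1.28 ± 0.39, adjusted p = 0.0279) and an interaction of -2.03 ± 0.56 (adjusted p = 0.0312). The last pair of calls was lost in 6 and 7 of the 21 fits that left out 1 library. Ctf1, cardiotrophin-1, fell in DOX by 0.90 on the log2 scale (SE 0.24, adjusted p = 0.00544), from 2.22 to 2.88 FPKM in Control to 0.95 to 1.57.

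Of 8 tested receptor genes beside Il6st and Osmr, 3 were higher in Tb than in Control and 1 was higher in DOX (2 higher and 1 lower in DOX without Tb replicate 5), where 5.0% and 18.0% of all genes were. Csf3r, the receptor for granulocyte colony-stimulating factor and itself a neutrophil marker, rose from 0.35 to 0.62 FPKM in Control to 10.5 to 69.4 in Tb (5.93 ± 0.40, adjusted p = 7.76e-09) and rose in Tb-DOX against DOX (5.49 ± 0.40, adjusted p = 3.78e-08). Lepr, the leptin receptor, rose in DOX (1.24 ± 0.17, adjusted p = 2.64e-05) and in Tb-DOX against Tb (0.73 ± 0.16, adjusted p = 0.0144) and lay lower in Tb-DOX than in DOX (-0.53 ± 0.17, adjusted p = 0.0361, lost in 8 of the 21 fits). Il10rb, the most abundant of them, was not called with all libraries (in DOX -0.31 ± 0.12, adjusted p = 0.0515) and was called lower in DOX without Tb replicate 5 (adjusted p = 0.0217). Of 9 tested JAK and STAT genes other than Stat3, 1 was higher in Tb, where 5.0% of all genes were: Jak3, a kinase mostly of blood cells (0.79 ± 0.15, adjusted p = 0.00127). In DOX 2 were lower (3 without Tb replicate 5), near the 18.2% of all genes, with the kinase gene Tyk2 at -0.63 ± 0.15 (adjusted p = 0.00337) and an interaction of 0.74 ± 0.21 (adjusted p = 0.0344, lost in 7 of the 21 fits that left out 1 library). In Tb-DOX against Tb 1 was lower (2.54% of all genes were), Jak1 (-0.38 ± 0.11, adjusted p = 0.0432), which lost its call in 13 of the 21 fits, that without Tb replicate 5 among them (adjusted p = 0.0751).

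Of 15 tested inhibitors of JAK-STAT signaling other than Socs3, 5 were higher and 1 lower in DOX, where 18.0% of all genes were higher and 18.2% lower. In Tb 4 were higher, where 5.0% of all genes were, and 2 without Tb replicate 5, where 543 of 13990 genes were. Cish, a SOCS family gene induced by STAT5, rose in DOX from 3.22 to 5.08 FPKM to 6.5 to 18.2 (1.60 ± 0.26, adjusted p = 0.0001), and its interaction (-1.11 ± 0.35, adjusted p = 0.0491) was lost in 14 of the 21 fits that left out 1 library. Pias1, a SUMO ligase gene, rose in DOX (0.59 ± 0.10, adjusted p = 0.000223) with an interaction of -0.66 ± 0.14 (adjusted p = 0.0141) that held in each of the 21 fits that left out 1 library. Ptpn6, a phosphatase of blood cells, rose in Tb (2.19 ± 0.34, adjusted p = 0.000171) and in Tb-DOX against DOX (3.21 ± 0.38, adjusted p = 7.45e-06) and was lower in DOX (-1.05 ± 0.39, adjusted p = 0.0392, lost in 7 of the 21 fits that left out 1 library). Ptpn11, the most abundant, was not called.

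Of 17 tested STAT3 target genes outside the 10 members, 10 were higher in Tb and 0 lower, where 5.0% of all genes were higher (Batf, among the 10, was under 0.5 FPKM in Control and passed the filter only through other groups), with a median log2 fold change of 1.35, and 4 were higher without Tb replicate 5. Fos was at 74.5 FPKM in Tb replicate 5 and its call (3.78 ± 1.00, adjusted p = 0.0236) became 1.10 (adjusted p = 0.265) without it. Pim1, a kinase gene of the STAT3 program, rose in DOX (1.39 ± 0.48, adjusted p = 0.0278, lost in 3 of the 21 fits) and in Tb (1.81 ± 0.47, adjusted p = 0.0214; 0.98 and adjusted p = 0.0567 without Tb replicate 5). In DOX 3 of the 17 were higher and 2 lower, where 18.0% of all genes were higher and 18.2% lower, the cyclin gene Ccnd1 among the lower ones (-0.75 ± 0.22, adjusted p = 0.0103). Without Tb replicate 5, 7 of the 17 were higher and 2 lower in DOX, where 3025 of 13990 genes were higher and 2918 lower. The survival gene Bcl2l1 was lower in Tb-DOX than in DOX (-1.07 ± 0.34, adjusted p = 0.0317, lost in 6 of the 21 fits). In Tb-DOX against Tb only Fgl2 was called, as lower (-1.45 ± 0.42, adjusted p = 0.0467), where 2.54% of all genes were lower. Its call was lost in 12 of the 21 fits, that without Tb replicate 5 among them (adjusted p = 0.0814). Mcl1, the most abundant, was not called in DOX or Tb with all libraries and was called in DOX without Tb replicate 5 (0.54, adjusted p = 0.0317).

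Of 32 acute phase genes outside the members 16 were tested. Of these, 4 were below 0.5 FPKM on average in Control, Saa3 and Orm1 among them, and passed the filter only through other groups. In Tb 8 were higher and 0 lower (4 without Tb replicate 5), in Tb-DOX against DOX 4 were higher (6 higher and 1 lower without Tb replicate 5), and in DOX 3 were higher and 1 lower (5 and 1 without it). Of all genes, 5.0% were higher in Tb, 9.52% in Tb-DOX against DOX and 18.0% in DOX, so that 3 of 16 in DOX is near the background. Saa3, the serum amyloid A gene made outside the liver, had 0 to 2 counts in Control, 3 to 80 in DOX, 24 to 4122 in Tb and 112 to 1966 in Tb-DOX, and was called in Tb (adjusted p = 0.000176) and in Tb-DOX against DOX (4.78 ± 1.06, adjusted p = 0.00365). Orm1, an orosomucoid gene, had 0 or 1 count in Control, 0 to 2 in DOX, 0 to 49 in Tb and 11 to 97 in Tb-DOX, and was called in both of these comparisons (adjusted p = 0.0151 and 0.00263). Lcn2, a neutrophil granule and acute phase gene, rose in Tb by 3.95 ± 0.75 (adjusted p = 0.00142) and in Tb-DOX against DOX by 2.52 ± 0.71 (adjusted p = 0.0180). Steap4, a metalloreductase gene induced by IL-6, rose in Tb (1.24 ± 0.18, adjusted p = 5.44e-05) and in DOX (1.07 ± 0.18, adjusted p = 0.000163) and had an interaction of -1.0 ± 0.25 (adjusted p = 0.0223), calls that held in each of the 21 fits that left out 1 library. Serpina3n, an acute phase protease inhibitor, rose in DOX (2.78 ± 0.87, adjusted p = 0.0168), from 2.83 to 11.2 FPKM in Control to 3.91 to 91.3, with overlap and a call that was lost in 1 of the 21 fits. Serping1, the most abundant of the list, was lower in DOX (-0.31 ± 0.11, adjusted p = 0.0339, lost in 7 of the 21 fits).

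**Figure D4:**
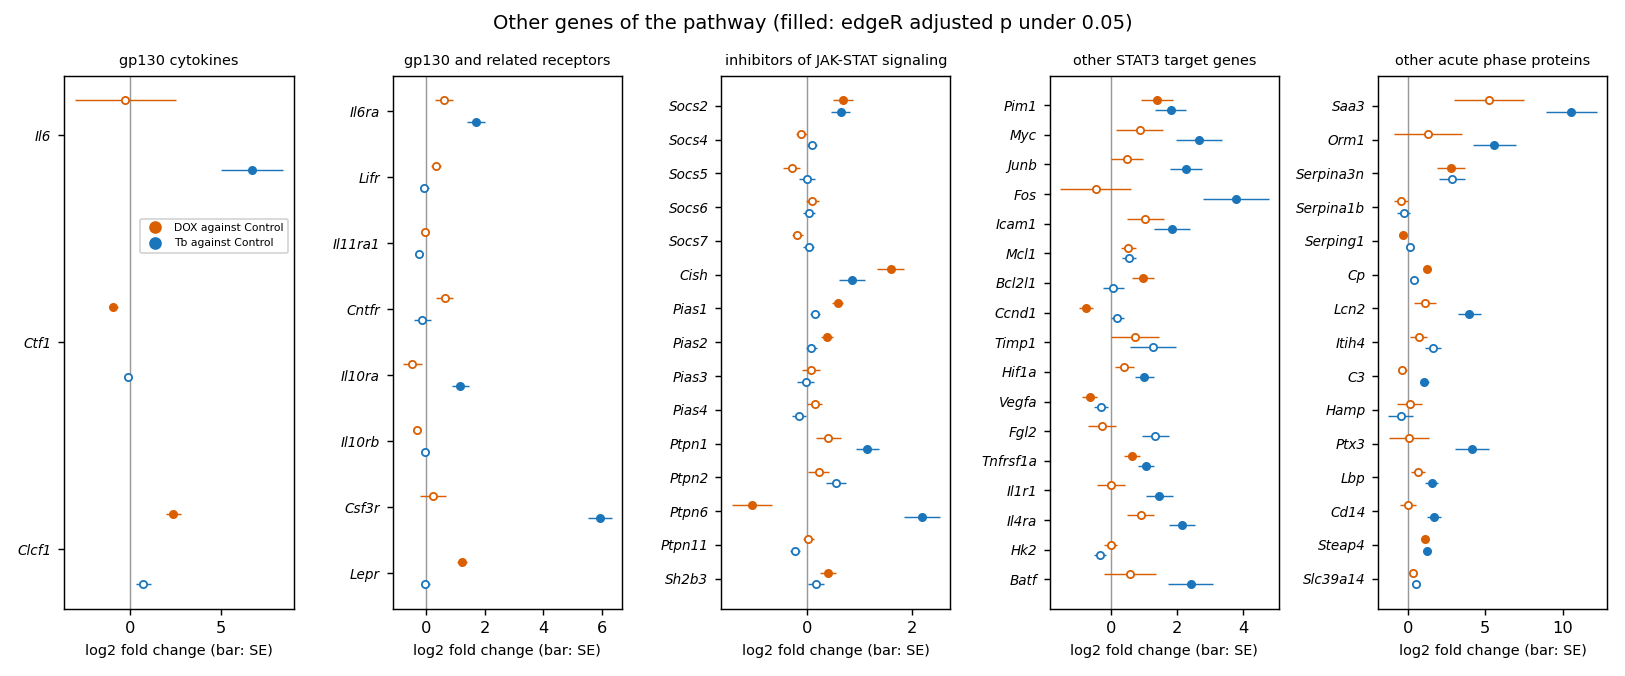
Log2 fold changes with SE bars of tested genes of 5 lists (cytokines, receptors, inhibitors, STAT3 targets and acute phase genes) in DOX against Control (orange) and Tb against Control (blue), filled where the adjusted p was under 0.05. Among receptors Csf3r at 5.93 and among acute phase genes Saa3 stand farthest to the right in blue, and Clcf1 at 2.38, Cish at 1.60 and Lepr at 1.24 are called in orange.

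Factors and regulators linked to Cebpd, Bcl3 and the metallothioneins were read next. Of 13 tested C/EBP and NF-kappaB genes, 1 was higher in Tb (5.0% of all genes were), Nfkbiz (1.71 ± 0.46, adjusted p = 0.0275), and this was lost without Tb replicate 5 (0.84, adjusted p = 0.0729). In DOX 1 was higher and 2 lower (18.0% and 18.2% of all genes), and without Tb replicate 5, 5 were higher and 2 lower (3025 and 2918 of 13990 genes). Nfkbib was at 0.74 ± 0.23 in DOX (adjusted p = 0.0173) and Nfkbie at -1.16 ± 0.42 (adjusted p = 0.0345), calls lost in 2 and 4 of the 21 fits that left out 1 library. In Tb-DOX against DOX Nfkbie was higher (1.61 ± 0.41, adjusted p = 0.00987), a call that held in each of the 21 fits. Nfkbia, the most abundant, was not called with all libraries and was called in DOX without Tb replicate 5 (0.67, adjusted p = 0.141, against 0.68, adjusted p = 0.0105). Of 10 tested zinc and metal genes, 4 were lower in DOX and 1 higher (4 and 2 without Tb replicate 5), where 18.2% of all genes were lower and 18.0% higher. The zinc transporter gene Slc30a2 was at -1.09 ± 0.30 (adjusted p = 0.00647), the abundant Slc39a1 at -0.38 ± 0.12 (adjusted p = 0.0191) and Slc39a10 at -0.45 ± 0.15 (adjusted p = 0.0189), with Slc39a6 at 0.55 ± 0.21 (adjusted p = 0.0477, lost in 14 of the 21 fits). Mtf1, the zinc sensor that acts on metallothionein promoters, was lower in DOX than in Control (-0.49 ± 0.11, adjusted p = 0.00125) and higher in Tb-DOX than in DOX (0.41 ± 0.11, adjusted p = 0.0101), with an interaction of 0.49 ± 0.15 (adjusted p = 0.0410, lost in 13 of the 21 fits). Slc30a1, a zinc exporter gene that zinc induces, rose in Tb (0.55 ± 0.16, adjusted p = 0.0370), a call lost without Tb replicate 5 (0.41, adjusted p = 0.0868).

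Of 14 tested glucocorticoid-induced genes, 7 were higher and 1 lower in DOX (9 and 1 without Tb replicate 5), where 18.0% of all genes were higher and 18.2% lower. In Tb 1 was higher (Lcn2, which is also an acute phase gene), where 5.0% of all genes were. The median log2 fold change of the list in DOX was 0.92, against 0.00 for all genes. Cdkn1a, a cell cycle inhibitor gene that p53 induces as well, rose in DOX from 3.87 to 13.3 FPKM to 28.4 to 50.1 (2.65 ± 0.64, adjusted p = 0.00293). The clock gene Per1 rose in DOX (1.39 ± 0.33, adjusted p = 0.00252), was lower in Tb-DOX than in DOX (-1.62 ± 0.33, adjusted p = 0.00194) and had an interaction of -1.72 ± 0.45 (adjusted p = 0.0267). Tsc22d3, a standard glucocorticoid target, was lower in DOX (-0.59 ± 0.17, adjusted p = 0.0109). Pdk4, a metabolic kinase gene, was lower in Tb-DOX than in Tb (-2.95 ± 0.51, adjusted p = 0.00277) and Sult1a1 was higher there (1.24 ± 0.23, adjusted p = 0.00466).

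Within groups the members also varied together from library to library, given here as a description with no test. After each group mean was removed from log2 CPM, the correlation over 21 libraries was above 0 for all 45 pairs of members, with a median Pearson's r of 0.687, and without Tb replicate 5 it was above 0 for 43 pairs with a median of 0.576. Libraries share depth, RNA quality and neutrophil content, which such values also carry. Il6st stood apart, with r between 0.01 and 0.48 to the other members. Mt2 and Lrg1 were the closest pair (0.929, and 0.92 without Tb replicate 5). The 5 genes of the whole table most like Socs3 by this measure were Sat1 (r = 0.958), Pim1 (0.956), Brd2 (0.956), Sbno2 (0.954) and Pfkfb3 (0.947), and without Tb replicate 5 their r was 0.874 to 0.914. The order changed without that library, where the 5 highest were Supt4a, Brd2, Sat1, Pitpnb and Fcgr3, and Pim1, Sbno2 and Pfkfb3 were no longer among them. Over all 21 libraries Cebpd (0.906) ranked 46 and Osmr (0.901) ranked 51, while Hp (0.561) ranked 2299 and Il6st (0.350) ranked 3994.

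**Figure D5:**
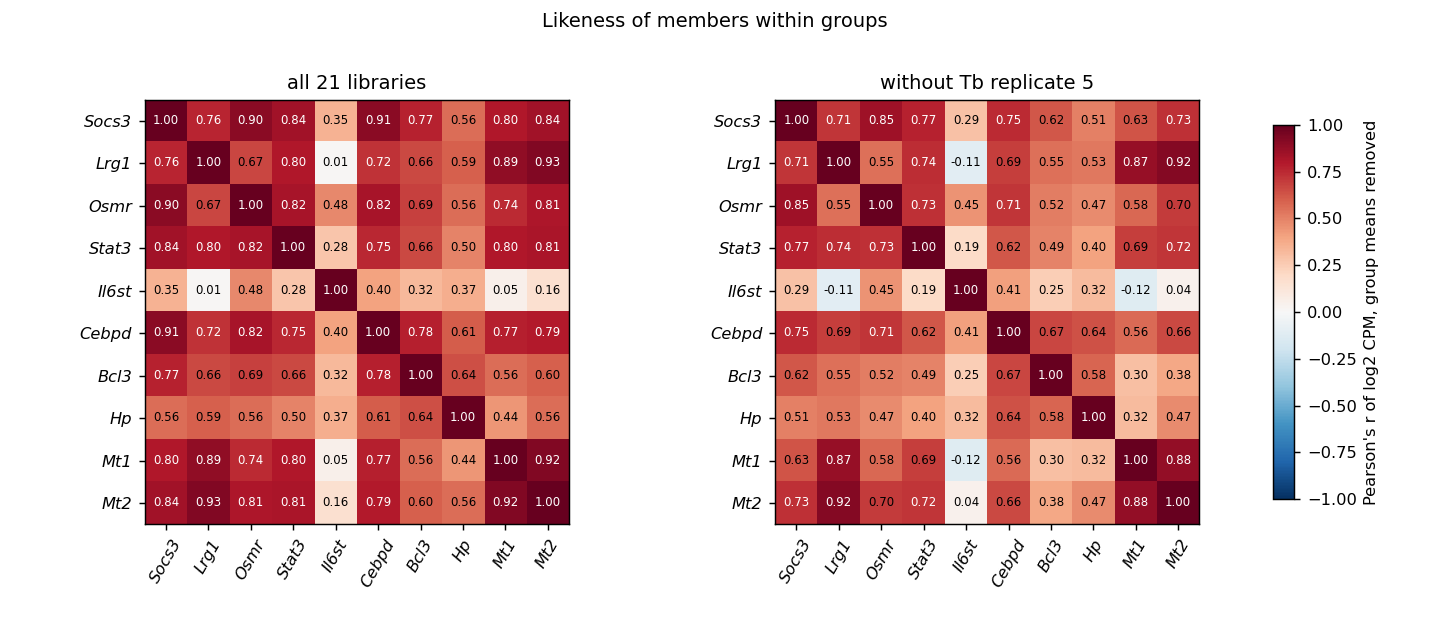
Pearson's r between members over libraries, from log2 CPM with group means removed, for all 21 libraries (left) and without Tb replicate 5 (right), coloured from -1 to 1. Socs3 and Cebpd share 0.91 and Lrg1 and Mt2 0.93 in the left panel, and Il6st is pale against every other member, with values of 0.01 to 0.48 there.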

How the data were processed

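The authors enriched mRNA from heart RNA, sequenced paired ends on an Illumina instrument and trimmed reads with Cutadapt; the submitters' processing notes also name FastQC, HISAT2, HTSeq 0.6.1, DESeq2 1.34.0 and build GRCm39, and whether counting used strand is not given in the sources used here. For each of 21 libraries the authors deposited, in 1 table, raw counts of reads per gene together with FPKM, beside gene annotation columns that were not used. The deposited FPKM values equal the count scaled by exonic length and library total in 100% of values, within 0.0051. Members were matched by symbol. The members and the gene lists were chosen with earlier results of these data known.

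Counts were tested with edgeR 4.0.16 (R 4.3.3; TMM scaling, quasi-likelihood F test, two-sided, 1 fit with 1 coefficient per group for all 21 libraries) for 13990 genes with a mean of at least 0.5 FPKM, with Benjamini-Hochberg adjustment over all of them. The SE is the absolute log2 fold change divided by the square root of F. Alternatives were other scalings, DESeq2 1.42.0, limma 3.58.1 on log2(FPKM + 0.1) and log2(FPKM + 1), other filters and thresholds, a replicate block and leaving out each library. That Tb replicate 5 and DOX replicate 4 were left out together was chosen after seeing the data. Replicate numbers were not taken as pairs, since same-numbered libraries of different groups deviated from their group means with a correlation of -0.23 to 0.21 over 30 pairs. No replicates agreed within sampling noise (chi-square per degree of freedom of at least 5.95). All 10 members were named. Genes named beside them were, per list, the most abundant tested gene and the called gene with the largest change per comparison and direction, and the 5 genes most like Socs3. A gene that this rule named is not reported here. Marker genes named were chosen after their values were seen. The procedure was tested on simulated data. Counting error limits genes near 0 counts, such as Bcl3 and Hp in Control.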

Additional observations from a re-analysis of the deposited data

Results flagged for a closer look

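In 5 of 40 groups of values (10 members in 4 groups) 1 library lay farther from the others than Dixon's 95% limit allows, where chance gives about 1 in 20 for independent, normally distributed groups. The values here were FPKM without logs, of genes that varied together, so that rate is no measure for this count. Tb replicate 5 was the highest Tb library in 4 of the 5 groups, with 63.8 FPKM for Socs3, 21.15 for Cebpd, 428.04 for Mt1 and 645.3 for Mt2. The other was the Il6st level of 15.88 FPKM in Control replicate 3, the lowest of a narrow group.

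The effect of DOX differed between tumor-free and tumor-bearing hearts by the interaction test for Socs3 (log2 -3.37), Osmr (-1.49) and Bcl3 (-2.50) with all libraries. No member was called for the interaction without DOX replicate 3, DOX replicate 4 or Control replicate 4, nor with limma at either pseudocount, with the replicate block or at adjusted p under 0.01.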

How the results depend on the processing

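Limits: depth allowed few counts for Bcl3 and Hp in Control, and 1 library, Tb replicate 5, widened the shared spread. With the replicate block, the count of called members was 3 in DOX against Control, 0 in Tb-DOX against Tb, 0 for the interaction, 4 in Tb against Control and 1 in Tb-DOX against DOX. The pairing has no support in the labels or in the libraries' deviations. In DOX against Control 2 members were called with limma at a pseudocount of 1 and at adjusted p under 0.01. In Tb-DOX against Tb 1 was called with no filter and with DESeq2. For the interaction 0 were called with limma at either pseudocount and at adjusted p under 0.01. DESeq2 called 4 members for the interaction and 8 in Tb against Control. In Tb-DOX against DOX 2 were called with library totals only, 3 with only the groups compared and 3 without both Tb replicate 5 and DOX replicate 4. Leaving out 1 library gave 2 to 5 called members in DOX against Control, 0 to 0 in Tb-DOX against Tb, 0 to 4 for the interaction, 4 to 8 in Tb against Control and 1 to 2 in Tb-DOX against DOX. Directions that turned all belonged to values that were not called. In DOX against Control, Il6st was -0.00699 with library totals only and -0.0333 and -0.0304 with limma at pseudocounts of 0.1 and 1, and Mt1 was -0.14 with library totals only, -0.10 with the block, -0.43 without both libraries and -0.20 with limma at either pseudocount. In Tb-DOX against Tb, Cebpd was 0.53 without both libraries and 0.00511 with limma at a pseudocount of 0.1, Bcl3 was 0.11 with the block, 0.34 without both libraries and 0.00643 with that limma fit, and Hp was 0.20 with the block and 0.0379 without both. The Mt1 interaction was 0.0449 without both and -1.53 to -0.429 over the fits that left out 1 library. In Tb-DOX against DOX, Osmr was 0.17 with library totals only, 0.0172 with the block, 0.0308 at a mean FPKM of at least 5, 0.29 without both libraries, and 0.24 and 0.20 with limma at 0.1 and 1. Il6st there was 0.16 with library totals only, 0.0420 at the higher FPKM minimum, 0.0436 without both, and 0.18 and 0.17 with limma. Mt1 there was 0.10 with library totals only, 0.35 without both, and 0.26 with limma at either pseudocount. Over the fits that left out 1 library, values that changed sign ran in Tb-DOX against Tb from -0.47 to 0.34 (Bcl3), -0.69 to 0.53 (Cebpd), -0.51 to 0.0424 (Hp) and -0.48 to 0.00157 (Lrg1), in DOX against Control from -0.42 to 0.27 (Mt1), and in Tb-DOX against DOX from -0.13 to 0.17 (Cebpd), -0.13 to 0.0638 (Il6st), -0.32 to 0.34 (Mt1), -0.16 to 0.28 (Osmr) and -0.11 to 0.19 (Stat3). The cause of these changes was not tested.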
